A study of Mus musculus with 6 samples.

Results

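The p53 target genes described here are 36 mouse genes that p53 is known to activate, or that lie in the p53 response, outside the cell-cycle arrest genes, the BCL2 family and the core p53 and MDM2 circuit. They were taken by gene symbol from a list of names, and entries sharing a symbol were summed. The list was drawn up with earlier results of these data known, so the shares set beside all genes are descriptive. All 36 had an entry among the 26082 gene names of the table. Of these, 30 had a mean of at least 1 FPKM (fragments per kilobase of transcript, scaled to the mapped fragments of the library) over the 6 samples and were tested together with all 11130 genes that passed this filter, and 6 (Ak1, Eda2r, Perp, Ptpn14, Trp73 and Zfp365) were too low to be tested.

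RNA-Seq was performed on leukemia cells collected from the bone marrow of C57BL/6J mice, with 3 samples after oral vehicle and 3 samples after oral DS-5272 at 80 mg/kg, all taken 24 h after dosing. DS-5272 is a small-molecule inhibitor of MDM2. Both groups carried MLL-AF9, a leukemia fusion gene introduced by retrovirus into bone marrow c-Kit+ progenitors, so no sample is free of the oncogene. The retrovirus also carried GFP, and the sources used here do not say whether the cells for RNA-Seq were sorted on it, a gate that would remove cells of the host. The labels give no age, no Trp53 genotype and no statement of whether 1 sample is 1 animal, so the p-values measure the spread between these samples.

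MDM2 binds p53 and marks it for destruction, and blocking this contact lets p53 accumulate and bind DNA. p53 then switches on genes far beyond arrest and the BCL2 family: sestrins that restrain growth signaling under stress, DNA repair factors, mediators of cell death and autophagy, kinases and phosphatases that brake proliferation, and enzymes and secreted proteins of metabolism. It binds as a tetramer to a pair of decamers, and many of its sites lie in introns or at a distance from the gene start.

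The summed FPKM of all entries ran from 445316 to 501241 with vehicle and from 499229 to 661184 with DS-5272. Relative sequencing depth, read from genes under 0.15 FPKM, ran from 0.808 to 1 with vehicle and was 0.746, 0.652 and 0.539 in DS-5272 replicates 1, 2 and 3, so the DS-5272 libraries were the shallower ones. Of the leukemia cell markers, Ptprc, Itgam, Cd33, Ly6c2 and Meis1 stood above 60 FPKM in every sample. Ptprc, Itgam and Cd33 rose after DS-5272 (log2 fold changes of 1.18, 2.1 and 1.41) and Kit and Mpo fell (−1.96 and −5.07), with no overlap of the groups. Cebpa differed by −0.38, again without overlap, at 29.7, 34.0 and 29.2 FPKM with vehicle and 22.9, 19.6 and 28.7 FPKM with DS-5272. Cebpa was not called in the test described below. Ly6g, also without overlap, was higher by 1.36. It stood at only 0.160 to 0.264 FPKM with vehicle and passed the filter only through the DS-5272 samples, so its direction was fixed. Spi1, Hoxa9 and Hoxa10 were not analysed here. Macrophage markers (11 of 12 with an entry) summed to 47.1 to 94.3 FPKM with vehicle. Their sum was 413, 126 and 150 FPKM in DS-5272 replicates 1, 2 and 3. Vcam1 made up most of the sum in every vehicle sample, at 36.6, 64.1 and 82.8 FPKM. It was at 143, 74.8 and 85.7 FPKM with DS-5272, and its groups overlapped. C1qa stood at 0.719 to 2.15 FPKM with vehicle and at 38.4, 6.92 and 6.64 FPKM with DS-5272. Marco was at 0 in all vehicle samples. Erythroid markers (7 of 10) summed to 2.53 to 4.70 FPKM with vehicle and to 147, 27.5 and 12.8 FPKM with DS-5272. NK and T cell markers summed to at most 8.40 FPKM and B cell markers to at most 5.79 FPKM in any sample. In such bulk samples, fewer cells of a type and less RNA per cell cannot be told apart.

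Of the 30 tested p53 targets, 8 rose after DS-5272 and none fell at an adjusted p of 0.05 (limma on log2(FPKM + 1), Benjamini-Hochberg over all genes tested). The count was 4, 3 and 3 without vehicle replicate 1, 2 or 3. Those that rose were Sesn2, Sesn3, Prkab1, Trp53inp1, Rap2b, Dcxr, Cd82 and Gdf15. The background was large: 24.2% of all genes were called higher and 22.0% lower, so 8 of 30 is close to the share of all genes. The count of 0 lower members stood against 22.0%, but Gtse1 missed the threshold narrowly (limma adjusted p = 0.0502). Of all calls, 52.4% were higher, and 32.5% were after rescaling the samples to a common total, where 8 members were again called higher and 1 lower. At an unadjusted p under 0.05 there were 12 of 30 members and 6187 of 11130 genes, a smaller share of the members than of all genes. The fold change was above 0 for 27 of 30 members, against 52.8% of all genes, and the median log2 fold change was 0.81 for the members (quartiles 0.22 and 1.34) and 0.042 for all genes. Of the members, 4 (Sesn3, Gdf15, Ephx1 and Pltp) passed the filter only through the DS-5272 samples and so had to be higher there.

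**Figure D1:**
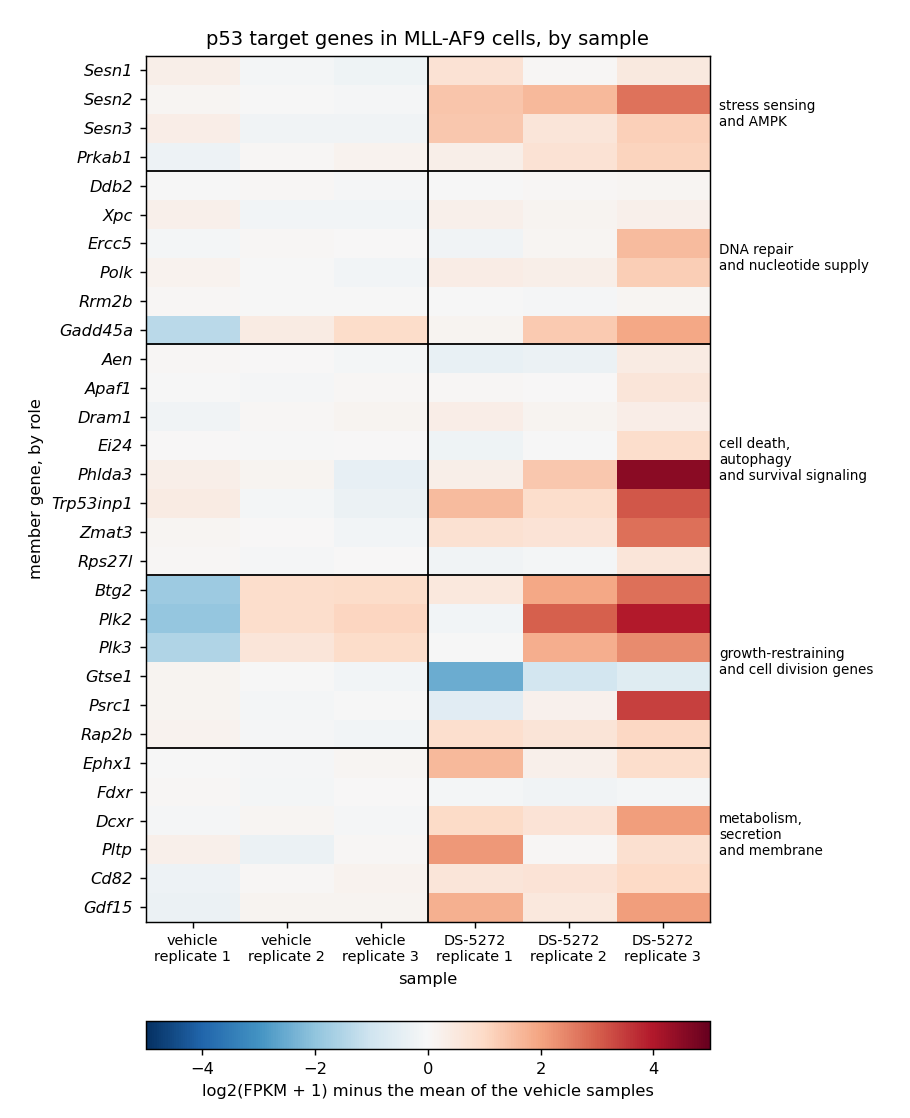
Heat map of log2(FPKM + 1) of each of the 30 tested p53 targets in each of the 6 samples, as the difference from the vehicle mean, with genes grouped by role. DS-5272 replicate 3 holds the strongest colors, and replicate 1 is the lowest sample of each group for Btg2, Plk2, Plk3 and Gadd45a.

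The departures of samples from their group mean, compared over genes, had a correlation of 0.66, 0.21 and 0.43 in same-numbered pairs 1, 2 and 3. Vehicle replicate 2 with DS-5272 replicate 3 was at 0.34, above pair 2. The pairing is therefore clear for replicate 1 only, and numbers 2 and 3 are not told apart. The labels state no pairing, so the block used below rests on the same values to which it is fitted. Within all 3 same-numbered pairs the DS-5272 sample was higher for 20 members, against 41.8% of all genes, and lower for 2 (Fdxr and Gtse1), against 37.3%. With the replicate number as a block, limma called 16 members higher against 30.3% of all genes, and 1 member lower (Gtse1) against 24.9%. The 8 additional higher members were Sesn1, Gadd45a, Zmat3, Btg2, Plk2, Plk3, Ephx1 and Pltp. All DS-5272 samples lay above all vehicle samples for 13 members, against 32.1% of all genes, and below them for Gtse1 and Fdxr, against 29.7%. Sesn3, Gdf15, Ephx1 and Pltp, whose direction was fixed by the filter, are counted in the 20 and the 16. All of them but Pltp are also counted in the 13. The smallest p that an exact two-sided permutation test allows with 3 samples against 3 is 0.1.

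**Figure D2:**
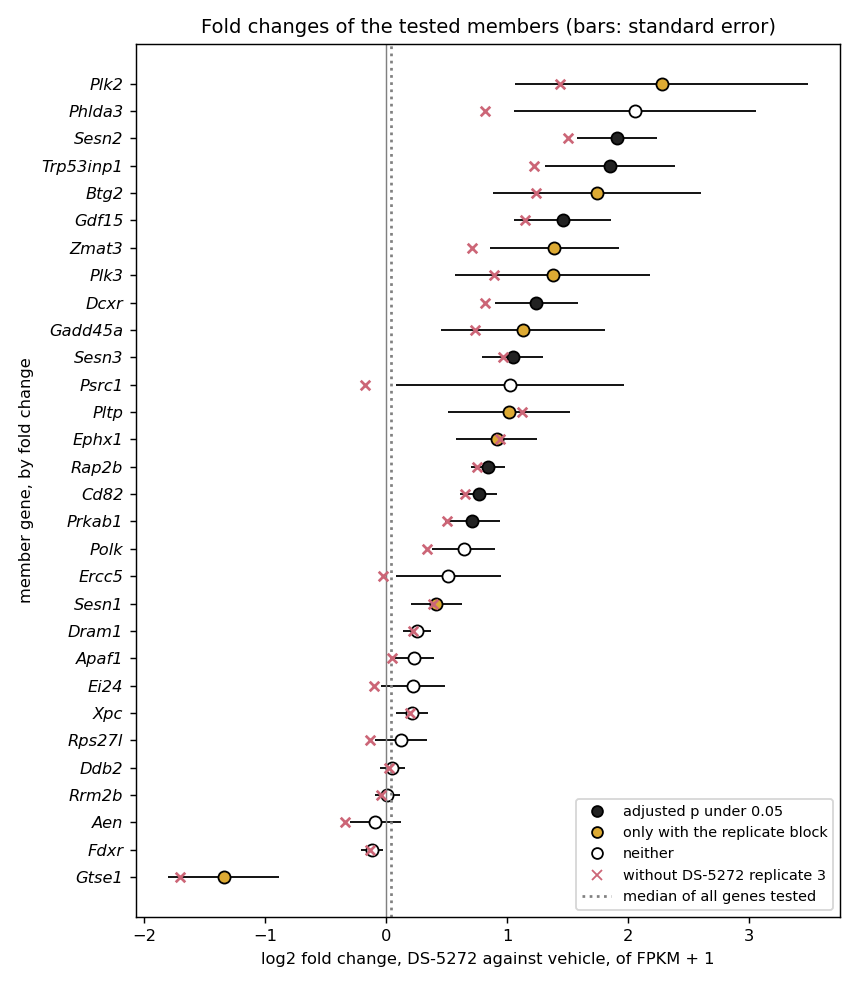
Log2 fold change of DS-5272 over vehicle on the log2(FPKM + 1) scale for the 30 tested p53 targets, with bars of 1 standard error. Black points passed the limma test, yellow points passed only with the replicate block, white points passed neither, crosses give the value without DS-5272 replicate 3, and the dotted line is the median of all genes, 0.042.

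The decamer to which p53 binds was searched in RefSeq promoter windows of 300 bases (250 before to 50 after an annotated start site, GRCm38.p6). Both strands were covered because the motif reads the same on either. A start site can lie inside the gene. It was at 41887439 for Sesn1, whose gene begins at 41809935. For Polk, on the minus strand, it was at 96519187, and the gene begins at 96542579. Of 30 members with a window, 8 held the decamer (26.7%), against 9.55% of 27025 genes. A gene with several starts had several chances. By window, the decamer was in 9 of the 44 of the members (20.5%), against 8.36% of the 32851 of all genes. Ddb2, Perp, Rrm2b, Trp53inp1, Xpc and Zmat3 had no window. The sequences below show every exact match, with the decamer in capitals and each window written 5′ to 3′ on the strand of the gene.
Rap2b, chr3:61364530-61364556, plus strand, 33 bases after the start: gcgacgtactGGGCATGCTCggctggg
Gadd45a, chr6:67037428-67037457, minus strand, 40 bases before the start: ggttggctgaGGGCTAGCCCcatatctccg
Aen, chr7:78895927-78895956, plus strand, 10 bases after the start: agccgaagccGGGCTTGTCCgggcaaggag
Ei24, chr9:36797325-36797354, minus strand, 10 bases before the start: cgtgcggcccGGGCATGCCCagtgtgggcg
Rps27l, chr9:66946193-66946222, plus strand, 210 bases before the start: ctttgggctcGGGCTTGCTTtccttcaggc
Rps27l, chr9:66946296-66946325, plus strand, 107 bases before the start: gggcttgttgAGACTTGTCCgggcgacacg
Sesn1, chr10:41887256-41887285, plus strand, 173 bases before the start: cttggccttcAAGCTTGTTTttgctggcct
Polk, chr13:96519399-96519428, minus strand, 231 bases before the start: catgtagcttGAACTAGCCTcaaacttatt
Gtse1, chr15:85859945-85859974, plus strand, 9 bases after the start: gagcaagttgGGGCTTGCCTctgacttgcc
Of these 8 genes, Rap2b was called higher, Gadd45a and Sesn1 were called higher only with the replicate block, Gtse1 was called lower only with the block, and Aen, Ei24, Rps27l and Polk were called in neither fit. A match of letters is a description and not a bound site.

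Of the 4 genes of stress sensing and AMPK, Sesn2, Sesn3 and Prkab1 rose, and Sesn1 passed the test only with the replicate block. Values per sample are given in the order of replicates 1, 2 and 3, and a difference is the log2 fold change on the log2(FPKM + 1) scale ± its standard error. Sesn2 encodes a stress-induced protein that senses leucine and restrains mTORC1. It stood at 7.79, 6.98 and 6.81 FPKM with vehicle and at 20.3, 24.2 and 52.7 FPKM with DS-5272. Every DS-5272 sample lay far above every vehicle sample, and the third was the highest. Sesn2 rose by 1.91 ± 0.33 (limma adjusted p = 0.0059), and this call held in all 21 alternatives, with an adjusted p of 0.0017 to 0.029.

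Sesn3, a sestrin better known as a FOXO target, stood at 0.788, 0.255 and 0.257 FPKM with vehicle and at 2.58, 1.13 and 2.26 FPKM with DS-5272. The groups did not overlap, and replicate 1 was the highest sample of each group. Sesn3 rose by 1.05 ± 0.25 (limma adjusted p = 0.016), and the call was lost without vehicle replicate 2 or 3 (limma adjusted p = 0.061 and 0.057). It passed the filter only through the DS-5272 samples, so its direction was fixed. Sesn1, the sestrin first found as a p53-induced gene, stood at 4.74, 3.31 and 3.0 FPKM with vehicle and at 6.54, 3.87 and 5.41 FPKM with DS-5272. Its groups overlapped, since DS-5272 replicate 2 lay below vehicle replicate 1, but each DS-5272 sample was above the vehicle sample of its own number. The difference was 0.42 ± 0.21 (limma adjusted p = 0.14), and with the replicate block the adjusted p was 0.046.

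Prkab1 encodes the beta 1 regulatory subunit of AMPK, the kinase that senses low cellular energy. It stood at 25.2, 32.2 and 35.1 FPKM with vehicle and at 37.6, 51.1 and 67.6 FPKM with DS-5272. The lowest DS-5272 sample was just above the highest vehicle sample, and replicate 1 was the lowest of both groups. Prkab1 rose by 0.71 ± 0.23 (limma adjusted p = 0.040). The call was lost without vehicle replicate 1, 2 or 3 (limma adjusted p = 0.12, 0.092 and 0.063), without DS-5272 replicate 2 or 3 (0.093 and 0.085) and with no filter on low genes (0.072).

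Sesn2 and Gdf15 are also known targets of ATF4, the transcription factor of the integrated stress response. Of 9 tested genes of an ATF4 target list, 1 was called higher and 4 lower, with a median log2 fold change of −0.27. The gene called higher, Slc7a11, passed the filter only through the DS-5272 samples, so its direction was fixed. With the replicate block 3 genes of the list were called higher and 4 lower. The summed level of the ATF4 target list was 217, 246 and 258 FPKM with vehicle and 117, 311 and 314 FPKM with DS-5272. Among the DS-5272 samples, this sum was lowest in replicate 1 and nearly equal in replicates 2 and 3. Sesn2 stood at 20.3, 24.2 and 52.7 FPKM in these samples. Gdf15, at 4.10, 1.14 and 5.34 FPKM, was lowest in replicate 2. Within the sum, Atf3 was at 14.7, 142 and 171 FPKM, whereas Asns and Psat1 were lowest in replicate 3. The part of ATF4 in either gene was not tested.

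None of the 6 DNA repair genes passed the test, and Gadd45a passed it with the replicate block. Gadd45a encodes a stress protein that binds PCNA and takes part in repair and growth arrest. It stood at 11, 40.2 and 57.9 FPKM with vehicle and at 32.9, 76.1 and 116 FPKM with DS-5272. The groups overlapped, and the first replicate was the lowest sample of both. Within same-numbered samples the difference was 1.5, 0.90 and 0.99, and the fold change was 1.13 ± 0.68 without the block (limma adjusted p = 0.21) and 1.13 ± 0.14 with it (adjusted p = 0.0025).

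Polk, a translesion DNA polymerase, stood at 4.37, 3.74 and 3.38 FPKM with vehicle and at 5.28, 4.92 and 10.4 FPKM with DS-5272. All DS-5272 samples were above all vehicle samples, but the difference of 0.64 ± 0.26 missed the threshold (limma adjusted p = 0.081). Ercc5, the XPG endonuclease of nucleotide excision repair, had a difference of 0.51 ± 0.43 that rested on 1 sample and was −0.024 without DS-5272 replicate 3. The damage sensors of nucleotide excision repair, Ddb2 and Xpc, and Rrm2b, the p53-controlled subunit of ribonucleotide reductase, had differences of 0.050 ± 0.10, 0.22 ± 0.13 and 0.0093 ± 0.10. Each of these 3 turned negative when the samples were rescaled to a common total (−0.17, −0.049 and −0.22), a scaling that moved the median of all genes by −0.24. An exon of Ddb2, Rrm2b and Gadd45a overlaps a gene on the opposite strand, and use of the strand in counting is not stated. The same holds for Ei24 and Plk3, described below.

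Of 10 genes of cell death, autophagy and survival signaling, 8 were tested and 1, Trp53inp1, passed. Trp53inp1 encodes a nuclear protein that modulates p53 activity and takes part in autophagy. It stood at 10.3, 6.96 and 5.88 FPKM with vehicle and at 24.3, 14.6 and 71.9 FPKM with DS-5272. The groups did not overlap, and the spread among the DS-5272 samples was far wider than among the vehicle samples. Trp53inp1 rose by 1.85 ± 0.54 (limma adjusted p = 0.029). The call was lost on leaving out any 1 of the vehicle replicates (limma adjusted p from 0.052 to 0.085) and with no filter on low genes (0.061), but not without DS-5272 replicate 3, where the difference was 1.22.

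Zmat3, an RNA-binding zinc finger protein that regulates splicing, stood at 1.94, 1.8 and 1.52 FPKM with vehicle and at 3.63, 3.38 and 17.3 FPKM with DS-5272. The groups did not overlap. The difference was 1.39 ± 0.53 (limma adjusted p = 0.070), and Zmat3 was called higher with the replicate block (0.043) and without DS-5272 replicate 3 (0.011), where it was 0.71. Phlda3, a pleckstrin homology protein that restrains AKT, stood at 1.63, 1.38 and 0.614 FPKM with vehicle and at 1.63, 4.52 and 49.0 FPKM with DS-5272. The first DS-5272 sample was at the level of the highest vehicle sample, and the third was 40.5 times the vehicle mean. With that spread, the difference of 2.05 ± 1.0 did not pass (limma adjusted p = 0.13, and 0.096 with the replicate block), and it was 2.94 and passed only on leaving out DS-5272 replicate 1 (0.039) or, in the blocked fit, replicate 1 of both groups (0.031).

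The remaining tested genes of this group differed little. Dram1, a lysosomal membrane protein of p53-driven autophagy, differed by 0.26 ± 0.12 and Apaf1, the scaffold of the apoptosome, by 0.23 ± 0.16. Ei24, an endoplasmic reticulum protein of autophagy, differed by 0.22 ± 0.26, and Rps27l, a ribosomal protein paralog, by 0.12 ± 0.21. Aen, an exonuclease of apoptosis, differed by −0.088 ± 0.21. None of these 5 passed, and DS-5272 replicate 3 was the highest of the 6 samples for each. Without that sample Ei24 and Rps27l were at −0.10 and −0.13, and Aen was called lower at −0.34 (limma adjusted p = 0.033). Rps27l shares sequence with Rps27, so its reads may be split between them.

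Of 8 genes that restrain growth or act in cell division, 6 were tested and Rap2b passed. Rap2b, a RAS-family GTPase, stood at 10.3, 8.46 and 8.13 FPKM with vehicle and at 16.7, 14.7 and 19.4 FPKM with DS-5272. All DS-5272 samples were above all vehicle samples, with a narrow spread in both groups. Rap2b rose by 0.85 ± 0.14 (limma adjusted p = 0.0054), and the call held in all 21 alternative fits, with an adjusted p of 0.0044 to 0.030. Rap2b did not reach the log2 fold change of at least 1 that a further alternative asked. Its exons overlap genes on the opposite strand.

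Btg2, Plk2 and Plk3 were called higher once the replicate number entered the fit. Replicate 1 was the lowest of the 3 samples in both groups for 7 members (23.3%), against 29.2% of all genes. Btg2, an antiproliferative adaptor of mRNA deadenylation, stood at 4.94, 37.0 and 38.0 FPKM with vehicle and at 28.8, 78.3 and 139 FPKM with DS-5272. Plk2, a polo-like kinase induced by stress and by growth factors, stood at 0.499, 9.61 and 11.1 FPKM with vehicle and at 4.26, 45.2 and 88.3 FPKM with DS-5272. Plk3, a polo-like kinase of the stress response, stood at 3.39, 17.6 and 22.1 FPKM with vehicle and at 11.2, 42.2 and 61.8 FPKM with DS-5272. In all 3 genes replicate 1 was the lowest sample of each group, and DS-5272 replicate 1 lay below vehicle replicates 2 and 3, so that the groups overlapped.

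Between same-numbered samples 1, 2 and 3 the differences were 1.47, 1.21 and 1.44 for Plk3, 2.33, 1.06 and 1.84 for Btg2, and 1.81, 2.12 and 2.89 for Plk2. Without the block the limma adjusted p was 0.20 for Plk3 (1.38 ± 0.80), 0.14 for Btg2 (1.74 ± 0.86) and 0.16 for Plk2 (2.27 ± 1.21). With it, the standard errors shrank to 0.11, 0.24 and 0.21 and the adjusted p were 0.00075, 0.0031 and 0.0013. Without replicate 1 of both groups, an alternative chosen after seeing the data, limma with no block also called Plk3, Btg2 and Plk2 higher (adjusted p = 0.022, 0.027 and 0.015), and Plk2 was also called without DS-5272 replicate 1 alone (0.030). The fit without replicate 1 of both groups called 8 members higher in all, against 22.4% of all genes.

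The 4 genes Btg2, Plk2, Plk3 and Gadd45a are also known to be induced within minutes by growth factors and by handling of cells. The summed level of 10 immediate early genes, among them Fos, Jun and Egr1, moved with the same samples, at 299, 3381 and 3546 FPKM with vehicle and 1129, 5763 and 7587 FPKM with DS-5272. Replicate 1 was again the lowest of both groups. Of the 10 genes, 2 (Egr2 and Nr4a1) were called higher, and 8 were with the replicate block. The part of this response in the 4 members was not tested.

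**Figure D3:**
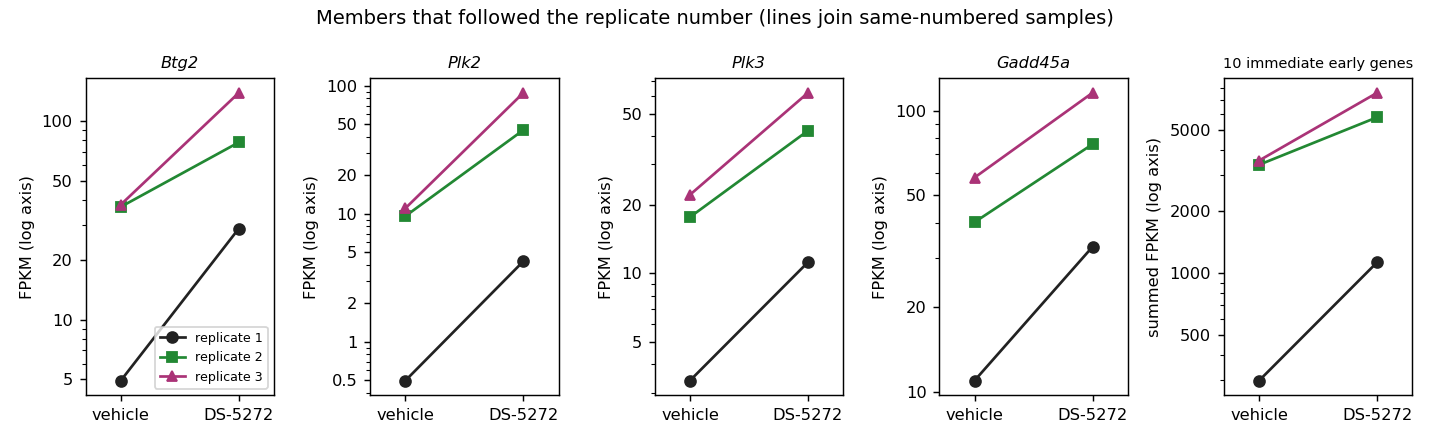
FPKM of Btg2, Plk2, Plk3 and Gadd45a and the summed FPKM of 10 immediate early genes (log axis), with 1 point per sample and a line joining the vehicle and DS-5272 samples of the same replicate number. Every line rises, and the replicate 1 line is the lowest in each panel.

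Gtse1 and Psrc1 act on microtubules in dividing cells. Gtse1 stood at 18, 16.4 and 15 FPKM with vehicle and at 2.1, 8.23 and 10.4 FPKM with DS-5272. All DS-5272 samples were below all vehicle samples. The difference of −1.34 ± 0.46 missed the threshold narrowly (limma adjusted p = 0.0502), and Gtse1 was called lower in 12 of 21 alternatives, among them the replicate block (0.032) and the fits without DS-5272 replicate 1 (0.011) or replicate 3 (0.029). All 12 genes of a mitotic list were called lower, with a median of −2.40, and their sum was 719, 674 and 648 FPKM with vehicle and 96.8, 319 and 72.9 FPKM with DS-5272. The DS-5272 sample with the lowest mitotic sum, replicate 3, had the highest Gtse1 of its group.

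Psrc1 stood at 5.23, 4.33 and 4.54 FPKM with vehicle and at 2.87, 5.6 and 59.8 FPKM with DS-5272. The first DS-5272 sample was below all vehicle samples and the third was 12.7 times the vehicle mean. The difference of 1.03 ± 0.94 did not pass (limma adjusted p = 0.40), and it was −0.17 without DS-5272 replicate 3.

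Of 8 genes of metabolism, secretion and membrane, 6 were tested, and Dcxr, Cd82 and Gdf15 rose. Cd82, a tetraspanin known as a metastasis suppressor, stood at 30.2, 37.8 and 40.2 FPKM with vehicle and at 55.2, 58.4 and 72.4 FPKM with DS-5272. The groups were clearly apart, and replicate 1 was the lowest of both. Cd82 rose by 0.77 ± 0.15 (limma adjusted p = 0.0090), and the call held in all 21 alternative fits, with an adjusted p of 0.0028 to 0.034. Like Rap2b, it did not reach a log2 fold change of at least 1. Dcxr, which reduces L-xylulose and dicarbonyls, stood at 17.7, 20.1 and 17.7 FPKM with vehicle and at 36.7, 30.2 and 82.1 FPKM with DS-5272. The groups did not overlap. Dcxr rose by 1.24 ± 0.35 (limma adjusted p = 0.026) and by 0.82 without DS-5272 replicate 3 (0.0064), while the call was lost without vehicle replicate 1, 2 or 3 (0.071, 0.065 and 0.071) and with no filter (0.053).

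Gdf15, a secreted stress hormone of the TGF-beta family, stood at 0.232, 0.631 and 0.655 FPKM with vehicle and at 4.10, 1.14 and 5.34 FPKM with DS-5272. Every DS-5272 sample was above every vehicle sample, and the second was well below the others. Gdf15 rose by 1.46 ± 0.40 (limma adjusted p = 0.024), but it passed the filter only through the DS-5272 samples, so its direction was fixed. The call was lost without vehicle replicate 1, 2 or 3 (0.075, 0.063 and 0.056) and without DS-5272 replicate 1 or 3 (0.060 and 0.065).

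Ephx1 and Pltp were highest in the DS-5272 sample that also held the most macrophage and erythroid RNA. Ephx1, the microsomal epoxide hydrolase, stood at 0.329, 0.283 and 0.453 FPKM with vehicle and at 3.18, 0.614 and 1.46 FPKM with DS-5272. Pltp, a phospholipid transfer protein also made by macrophages, stood at 0.746, 0.211 and 0.518 FPKM with vehicle and at 5.67, 0.542 and 1.58 FPKM with DS-5272. The groups did not overlap for Ephx1 and overlapped for Pltp. An exon of Ephx1 overlaps a gene on the same strand, and an exon of Pltp overlaps Ctsa on the opposite strand. Both Ephx1 and Pltp passed the filter only through the DS-5272 samples, so their direction was fixed. The differences of 0.92 ± 0.33 and 1.02 ± 0.51 did not pass (limma adjusted p = 0.061 and 0.14) and were called with the replicate block (0.031 and 0.035) and without DS-5272 replicate 2 (0.015 and 0.039). Macrophage markers were also highest in DS-5272 replicate 1. There C1qb was at 58.2 FPKM, against 14.1 and 15.6 FPKM in the other DS-5272 samples and 1.53 to 2.95 FPKM with vehicle. Siglec1 was less uneven, at 29.5, 16.5 and 23.2 FPKM with DS-5272 and 0.677 to 2.43 FPKM with vehicle. Of 9 tested macrophage markers, 4 were called higher, against 24.2% of all genes. Without DS-5272 replicate 1 the differences of Ephx1 and Pltp were 0.56 and 0.44 (limma adjusted p = 0.075 and 0.23), and that of Sesn3, also highest in this sample, was 0.90 (0.036). C1qb was above all vehicle samples in DS-5272 replicates 2 and 3 as well, so leaving out replicate 1 does not remove the macrophage markers. The part of macrophage RNA in these genes was not tested. Fdxr, the mitochondrial ferredoxin reductase, differed by −0.12 ± 0.09 and did not pass (limma adjusted p = 0.32), although its DS-5272 samples lay below all vehicle samples.

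DS-5272 replicate 3 stood apart among the treated samples for the p53 targets. It was the highest of the 6 samples for 23 of 30 members, against 40.0% of all genes. It was at least 2 times both other DS-5272 samples for 7 members (Sesn2, Trp53inp1, Dcxr, Zmat3, Phlda3, Psrc1 and Ercc5), against 1.11% of all genes, a limit chosen after the values were seen. Relative to the vehicle mean, the median member lay 0.29, 0.28 and 1.08 higher on the log2 scale in DS-5272 replicates 1, 2 and 3, while the median of all genes lay at 0.12 in replicate 3 and within 0.01 of 0 in the others. Ercc5 stood at 3.70, 4.33 and 4.15 FPKM with vehicle and at 3.52, 4.46 and 14.2 FPKM with DS-5272. Replicate 3 was also the shallowest library, and the part of depth was not tested.

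**Figure D4:**
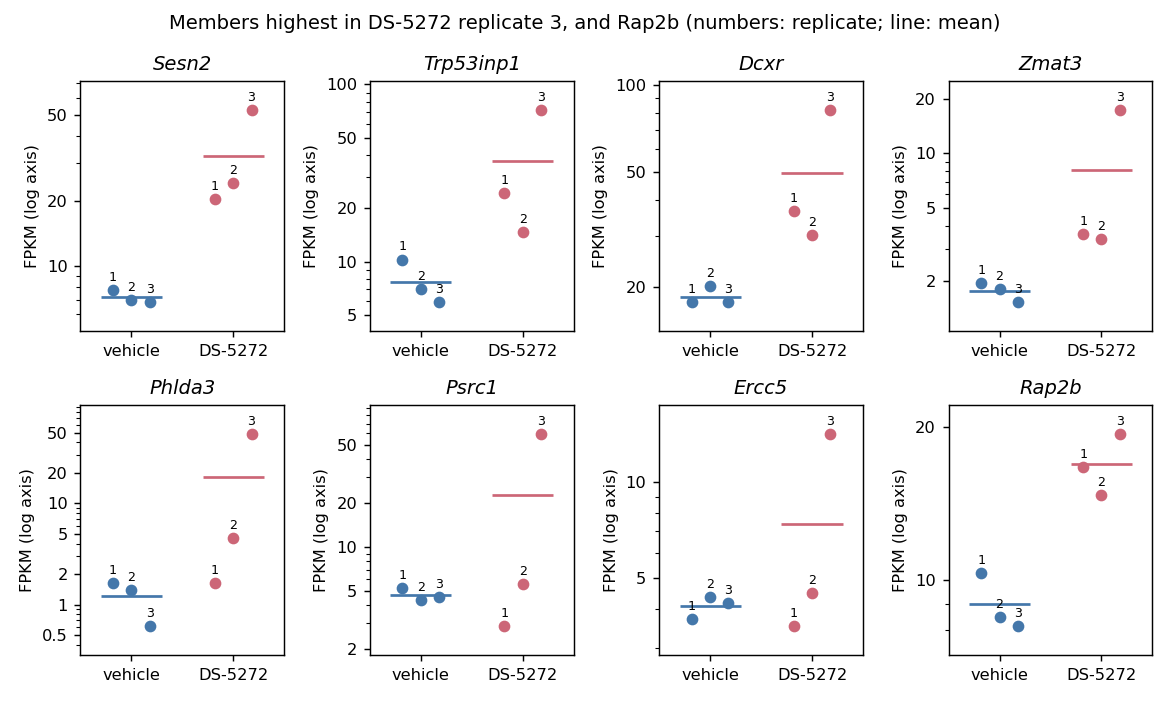
FPKM of Sesn2, Trp53inp1, Dcxr, Zmat3, Phlda3, Psrc1, Ercc5 and Rap2b in each sample (log axis), with points numbered by replicate and a line at each group mean. DS-5272 replicate 3 is the highest sample in all 8 panels, far above the other DS-5272 samples in 7 of them and close to them for Rap2b.

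The spread among the DS-5272 samples was larger for the median member than for the median gene. It was wider than with vehicle for 22 of 30 members and 8641 of 11130 genes, so widening was no more frequent among the members. The median standard deviation of log2(FPKM + 1) was 0.15 with vehicle and 0.63 with DS-5272 for the members, against 0.11 and 0.21 for all genes. Without DS-5272 replicate 3, limma called 7 members higher against 20.1% of all genes, and Aen and Gtse1 lower against 19.7%. The median fold change of the members was then 0.58, and that of all genes 0.00053. Zmat3 entered the higher calls, and Gdf15 and Prkab1 left them.

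The 6 members that were not tested are Ak1, an adenylate kinase of nucleotide balance, Eda2r, a receptor of the TNF family, Perp, a membrane protein of desmosomes and apoptosis, Ptpn14, a phosphatase that restrains YAP, Trp73, a p53 paralog, and Zfp365, a zinc finger protein of genome stability. Ak1 ranged from 0.294 to 0.578 FPKM with vehicle and from 0.549 to 1.47 FPKM with DS-5272, with overlap between the groups. The other 5 reached at most 0.186 FPKM in any sample, and no difference is given for them.

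The core p53 genes that are not members give the setting for these values. Of 12 such genes, 11 had an entry of their own and were tested, Fas was called higher and Trp53 lower, and their median log2 fold change was 0.86. Trp53 mRNA stood at 84.1, 63.9 and 70.8 FPKM with vehicle and at 41.5, 44.8 and 29.96 FPKM with DS-5272, and fell by 0.91 ± 0.18 (limma adjusted p = 0.0086). Mdm2 stood at 27.1, 36.3 and 40.0 FPKM with vehicle and at 42.6, 78.8 and 210 FPKM with DS-5272, and Cdkn1a at 14.8, 28.1 and 25.5 FPKM against 32.3, 117 and 485 FPKM. In both genes DS-5272 replicate 3 was by far the highest sample, as in the members listed above. Neither passed without the block (limma adjusted p = 0.073 and 0.061), and with it 5 of the 11 were called higher (Mdm2, Cdkn1a, Fas, Ccng1 and Bbc3) and Trp53 lower. Ccng1 reached 243 FPKM in DS-5272 replicate 3, against 68.2 and 78.02 FPKM in the other DS-5272 samples and 46.4 to 51.8 FPKM with vehicle.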

How the data were processed

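RNA-Seq was analysed in 6 samples of MLL-AF9 leukemia cells. The authors made strand-specific libraries, trimmed reads with cutadapt 1.8.1, aligned them to GRCm38 transcripts with TopHat2 2.1.1 and computed FPKM with Cufflinks 2.2.1. The deposited FPKM values are already scaled to transcript length and library size, hold no counts, and were not tested with a count model. The annotation version and the use of strand in counting are not given in the sources used here. The table has 26632 lines and 433 lines that join several genes, which were not split.

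Entries sharing a symbol were summed (435 symbols). Samples were grouped by the treatment in their labels and compared with limma 3.58.1 in R 4.3.3 (lmFit, then eBayes in which the prior variance follows the mean; two-sided) on log2(FPKM + 1). Genes averaging 1 FPKM or more were kept, p-values were adjusted by Benjamini-Hochberg, and the threshold was 0.05. This scale understates the change of low genes. The fit was tested on simulated data. The members and lists were chosen with earlier results of these data known. All members are named: those called in the fit, or in it with the replicate block, with every sample's value, and the rest by fold change or range. Phlda3, Psrc1, Ercc5, Polk and Ccng1 are given by sample although outside that rule, chosen after their values were seen.

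The labels state no pairing of the replicate numbers, so the main fit has no block. The departures of each sample from its group's mean, compared over genes, had a correlation of 0.66, 0.21 and 0.43 between same-numbered samples. The replicate block is an alternative that takes the numbers as pairs from these same values. Only replicate 1 was clearly paired. Other pairings ran from −0.58 to 0.34, and DS-5272 replicate 3 with vehicle replicate 2, at 0.34, was above the same-numbered pair 2. Alternatives were pseudocounts of 0.1 and 0.5, no filter on low genes, a higher filter (mean of 5 FPKM), 4 rescalings, eBayes without the trend, the highest line per symbol, the replicate block, leaving out each sample, and a log2 fold change of at least 1. Leaving out replicate 1 of both groups, and the block without replicate 1 or 3, were chosen after seeing the data. The limit on the fold change was put on the counts of calls and is not among the 21 fits. The decamer search used RefSeq promoter windows, and gene overlap used GENCODE on GRCm38. Depth was read from the smallest FPKM steps of low genes. Figures and sequence searches used matplotlib 3.10.9, pandas 2.3.3 and numpy 2.4.6 under Python 3.11.15.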

Additional observations from a re-analysis of the deposited data

How the results depend on the processing

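The count of 8 members called higher was 5 with no filter, 16 with the replicate block, 13 with the block and without replicate 1 of both groups, and 5 when a log2 fold change of at least 1 was also asked. On leaving out 1 sample it ran from 3 to 9, and it was 4, 3 and 3 without vehicle replicates 1, 2 and 3. The count of 0 members called lower was 1 with a mean of at least 5 FPKM, after rescaling to a common upper quartile, by median ratio or to a common total, after quantile normalization, with the replicate block, without replicate 1 of both groups, and with the block and without replicate 1. It was 2 with the block on a common total and with the block and without replicate 3 of both groups, and ran from 0 to 2 on leaving out 1 sample, with 2 without DS-5272 replicate 3. The members' median of 0.81 ran from 0.55 to 0.87. For all genes, 2697 higher calls became 1713 on a common total and 978 with a log2 fold change of at least 1, and ran from 1623 (without vehicle replicate 2) to 2934 on leaving out 1 sample. The 2451 lower calls became 4526 with the block on a common total and 621 with a log2 fold change of at least 1, and ran from 1389 to 2432, with 1389 and 1492 without vehicle replicates 2 and 3. Rescaling to a common total moved the median of all genes by −0.24 and a common upper quartile by −0.12, and the higher share of all calls was 52.4% as reported, 32.5% and 41.3%. The cause was not tested in any of these cases.

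Members near 0 changed sign. On a common total, with or without the block, Ddb2 was at −0.17, Xpc at −0.049, Rrm2b at −0.22, Apaf1 at −0.024, Ei24 at −0.041 and Rps27l at −0.14. On a common upper quartile, Ddb2 was at −0.066, Rrm2b at −0.11 and Rps27l at −0.019. Rrm2b was at −0.039 by median ratio, and quantile normalization put Xpc at −0.038 and Rps27l at −0.23. On leaving out 1 sample, Aen ran from −0.34 to 0.048, Ercc5 from −0.024 to 0.85, Rrm2b from −0.045 to 0.040, Ei24 from −0.10 to 0.43, Rps27l from −0.13 to 0.27 and Psrc1 from −0.17 to 1.82, and the low end was without DS-5272 replicate 3 in each. Without replicate 1 of both groups Aen was at 0.077, with the block or without it. With the block and without replicate 3 of both groups, Ddb2 was at −0.0014, Ercc5 at −0.0100, Rrm2b at −0.061, Ei24 at −0.096, Rps27l at −0.13 and Psrc1 at −0.19.

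The replicate block added 8 members to the higher calls, 16 in all, and Gtse1 to the lower calls, and it ended no call of a member. Without replicate 1 of both groups, Trp53inp1, Dcxr and Gdf15 lost their calls (limma adjusted p = 0.074, 0.081 and 0.14). The FPKM hold no counts, so no interval from counting is given.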
